A study of Mus musculus with 10 samples.

Results

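The genes described here encode the enzymes of the lower part of glycolysis, from aldolase to enolase, and the 2 subunits of lactate dehydrogenase. They were chosen by symbol in the count table: Aldoa, Aldoc, Tpi1, Gapdh, Pgk1, Pgam1, Eno1, Eno3, Ldha and Ldhb. All 10 were found among the 20295 genes of the table, and 9 had enough reads to be tested, of 11229 genes tested in all. Aldoc had too few reads. Poly-A RNA was sequenced from brown fat lying between the shoulder blades (interscapular), a tissue that burns fuel for heat, of 10 single-housed male C57BL/6JBomTac mice aged 8 weeks. Controls (5 mice) stayed at 22 °C, while the cold group (5 mice) spent 3 days at 4 °C. The treatment label of the cold samples names room temperature with 4 °C beside it, and their titles, source names and treatment protocol place them in the cold. Each mouse gave 1 library, and all were fed chow without restriction beforehand. Room temperature is itself below the thermoneutral range of mice, so the control group is not a group without cold stress. The comparison asks how the transcripts of the tissue differ after the cold exposure.

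Glycolysis splits glucose into pyruvate in the cytosol. In its lower part aldolase cuts the phosphorylated hexose into triose phosphates, and the later enzymes turn these into pyruvate while making NADH and ATP. Lactate dehydrogenase interconverts pyruvate and lactate and returns NADH to NAD+. Brown adipose tissue takes up much glucose in the cold, and its triose phosphates also feed the glycerol backbone of triglycerides through glycerol-3-phosphate dehydrogenase. Several of these enzymes exist as isozymes from separate genes: aldolase A and C, enolase 1 (alpha) and enolase 3 (the muscle type, beta), and lactate dehydrogenase subunits A (the muscle type) and B (the heart type).

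Libraries held 4446163 to 6923932 counts. The 9 brown adipocyte markers were read in every library and together gave 26420 to 29660 CPM (reads scaled to a common library size, TMM-adjusted) in controls and 36620 to 41910 CPM after cold. Ucp1, Elovl3 and Cox7a1 of the 9 rose, Adipoq and Cox8b fell, and 4 did not pass the test. Most of the summed difference was Ucp1, at 9123 ± 801 and 18530 ± 852 CPM. Skeletal muscle markers were high in 3 libraries: the 14 of them summed to 157.3 CPM in control replicate 4, 480.7 CPM in cold replicate 2 and 354.9 CPM in cold replicate 3, against 38.9 to 56.6 CPM in the other 7, where up to 7 of the 14 were at 0. Endothelial markers (6 genes) summed to 595.4 to 770.2 CPM in controls and 745.8 to 893.1 CPM after cold, macrophage markers (6 genes) to 89.6 to 199.8 and 68.1 to 339.8 CPM, and fibroblast and preadipocyte markers (5 genes) to 181.6 to 260.6 and 153.6 to 425.9 CPM. Erythroid markers (7 genes, up to 5 of them at 0 in a library) summed to 8.60 to 19.0 and 15.4 to 47.5 CPM. Nerve markers (8 genes, up to 3 at 0) summed to 208.8 to 340.5 and 211.9 to 381.8 CPM. The part of these cell types in the results was not tested, and in bulk tissue fewer cells of a type and less RNA per cell cannot be told apart.

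Of the 9 tested members, 3 rose in the cold and 0 fell at an adjusted p under 0.05 in edgeR's quasi-likelihood test, where 10.2% of all genes tested rose and 9.14% fell. The 3 were Pgam1, the phosphoglycerate mutase, Ldha, the lactate dehydrogenase subunit of muscle type, and Pgk1, the phosphoglycerate kinase, with rises of 1.37-fold, 1.27-fold and 1.23-fold. For each of them the lowest cold library exceeded the highest control, as it did for 7.39% of all genes tested. Aldoc, below the filter, had all 5 cold libraries below all 5 controls, as 6.57% of all genes tested had. The median log2 fold change of the 9 was 0.13, against -0.02 over all genes tested, and 8 of the 9 estimates were above 0, against 5353 of 11229. Without the 3 libraries high in muscle markers, which leaves 4 control and 3 cold libraries, 0 members passed the test, where 2.63% of the 11173 genes tested rose and 1.68% fell, with estimates for Pgam1, Ldha and Pgk1 of 0.41, 0.34 and 0.26 on the log2 scale. The part of muscle tissue in these results was not tested.

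Picked by their call and not by a shared pattern over the libraries, the promoter windows of the 3 genes that rose are shown. These windows stand beside that of Aldoa, the most abundant member, which did not pass the test. Aldoa does not stand for all members not called, since others of them had matches, given below the sequences. They come from RefSeq, build GRCm38.p6, each 300 bases around a start site, 5′ to 3′ on the gene's strand: chr7:46845554-46845853 (+) for Ldha, chr19:41911621-41911920 (+) for Pgam1, chrX:106186850-106187149 (+) for Pgk1 and chr7:126800398-126800697 (-) for Aldoa. Aldoa and Ldha have 3 and 2 such windows, and the one nearest to the start of the counted transcript was taken. Matches in their other windows are not given, and which start site the tissue uses was not tested. Capitals mark ACGTG and GCGTG on either strand, the core letters of sites bound by hypoxia-inducible factors, and the longer CACGTG, the E-box read the same on both strands, which holds ACGTG once on each strand.
Ldha: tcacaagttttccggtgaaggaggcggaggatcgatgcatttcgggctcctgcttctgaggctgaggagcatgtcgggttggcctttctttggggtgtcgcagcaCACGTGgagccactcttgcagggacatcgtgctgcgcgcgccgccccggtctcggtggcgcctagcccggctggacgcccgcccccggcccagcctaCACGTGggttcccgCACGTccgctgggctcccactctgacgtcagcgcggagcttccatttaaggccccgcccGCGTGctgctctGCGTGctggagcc
Pgam1: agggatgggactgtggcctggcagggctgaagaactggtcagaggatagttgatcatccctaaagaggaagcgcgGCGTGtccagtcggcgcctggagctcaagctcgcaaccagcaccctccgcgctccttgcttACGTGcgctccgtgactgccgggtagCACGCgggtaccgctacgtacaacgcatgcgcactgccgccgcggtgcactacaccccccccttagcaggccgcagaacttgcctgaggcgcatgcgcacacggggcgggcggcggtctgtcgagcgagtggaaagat
Pgk1: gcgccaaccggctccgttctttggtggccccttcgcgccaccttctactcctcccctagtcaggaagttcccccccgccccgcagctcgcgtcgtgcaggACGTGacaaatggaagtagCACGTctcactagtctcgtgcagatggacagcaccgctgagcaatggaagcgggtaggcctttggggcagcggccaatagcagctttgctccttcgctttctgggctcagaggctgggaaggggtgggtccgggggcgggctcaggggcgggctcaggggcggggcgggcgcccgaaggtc
Aldoa: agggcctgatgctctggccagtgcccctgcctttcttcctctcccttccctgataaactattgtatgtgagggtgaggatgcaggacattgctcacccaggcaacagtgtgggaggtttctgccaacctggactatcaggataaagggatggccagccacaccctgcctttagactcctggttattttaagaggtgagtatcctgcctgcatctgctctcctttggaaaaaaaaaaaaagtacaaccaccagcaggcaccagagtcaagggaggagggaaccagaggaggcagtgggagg
Of 32851 promoter windows of this length, 43.8% held ACGTG or GCGTG on either strand, 19.6% held ACGTG and 7.15% held CACGTG. The marked letters all hold a C followed by a G, and these shares were not matched for base composition. G and C made up 67.3% of the Ldha, 65% of the Pgam1 and 66.7% of the Pgk1 window. In the windows of the other members they made up 52.7% to 57.3%. The part of base composition in the matches was not tested. Among the windows of the 10 members, 8 held ACGTG or GCGTG and 1, that of Ldha, held CACGTG. The Ldha window held 7 matches, of which 5 were ACGTG, and 4 of these 5 came from its 2 copies of CACGTG. The Pgam1 window held 3 matches, 1 of ACGTG and 2 of GCGTG, and the Pgk1 window held 2, both ACGTG. Of the members not called, the Gapdh window held 3, 1 of ACGTG and 2 of GCGTG, and the Eno1 window held 2 of GCGTG. The Aldoc, Eno3 and Ldhb windows held 1 of GCGTG each, and those of Aldoa and Tpi1 held 0. Some windows lay away from the start of the counted transcript. In genome coordinates their start site was at -694 bases from it for Gapdh, -244 for Eno1 and -138 for Tpi1. For the other members it was at 0 to -52 bases. A match in these letters is a description of the window.

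How much of each transcript can be told from other genes differed widely among the members, and it bears on every level given here. Stretches of 50 bases of the GENCODE M21 transcript of each member (build GRCm38) were looked up in the transcripts of all other genes, on both strands. For Gapdh, the glyceraldehyde-3-phosphate dehydrogenase often used as a reference gene, 90.4% of the stretches occurred in other genes, 222 of them, including 213 pseudogenes. The share was 72.2% for Eno1, led by its copy Eno1b at 70.5%, and 68.0% for Pgk1, led by Pgk1-rs7. It was 41.5% for Pgam1, 27.0% for Ldhb, 19.1% for Ldha, 14.4% for Aldoa and 7.51% for Tpi1. For Aldoc and Eno3 0 stretches were shared. Eno1 was counted over only 127 bases in the deposited table, while its transcript is 2027 bases long, and the other members were counted over 1274 to 1832 bases. How reads that map to several places were treated is not given in the sources used here, so levels of Gapdh, Eno1, Pgk1 and Pgam1 may be counted in part.

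**Figure D1:**
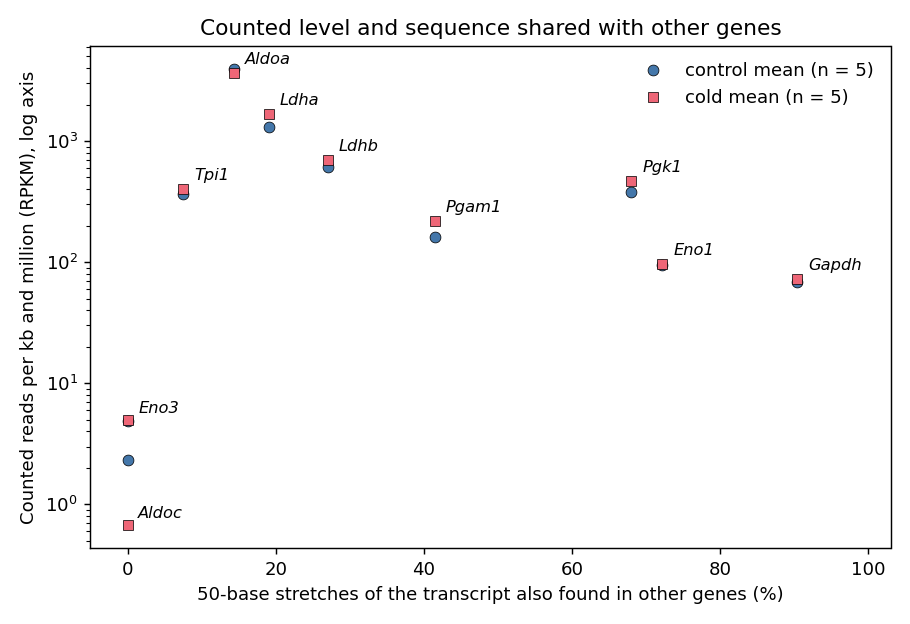
Level of each member as CPM per kb of counted bases (RPKM, log axis) against the share of 50-base stretches of its transcript that also occur in other genes. Circles are means of 5 control and squares of 5 cold libraries. Gapdh and Eno1 sit at the right with 69.1 to 96.3 RPKM, and Aldoa at the top left. Pgk1, with 68.0% shared, lies higher at 381 and 467.5 RPKM, and Eno3 and Aldoc, with 0 shared, lie lowest.

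Per length, Aldoa was counted highest in the control libraries and Aldoc lowest. Levels as CPM per kb of counted bases (RPKM) averaged 3948 ± 686 in controls for Aldoa (SD, n = 5, as for all values that follow), 1309 ± 135 for Ldha, 613 ± 56.6 for Ldhb, 381 ± 43.3 for Pgk1 and 367 ± 24.0 for Tpi1. Pgam1 followed at 160 ± 23.3 RPKM, Eno1 at 95.1 ± 28.3, Gapdh at 69.1 ± 16.7, Eno3 at 4.84 ± 1.82 and Aldoc at 2.34 ± 0.95. In this order Pgk1 and Tpi1, Eno1 and Gapdh, and Eno3 and Aldoc had ranges of mean ± SD that overlapped. In the cold the order was the same: Aldoa was at 3626 ± 662 RPKM, Ldha at 1664 ± 136, Ldhb at 700 ± 52.5, Pgk1 at 467.5 ± 19.4, Tpi1 at 402 ± 28.6, Pgam1 at 219 ± 7.84, Eno1 at 96.3 ± 24.1, Gapdh at 73.1 ± 9.49, Eno3 at 4.95 ± 3.97 and Aldoc at 0.670 ± 0.113. The 10 genes together took 0.888% to 1.15% of the counts of control and 1.02% to 1.21% of those of cold libraries, ranges that overlap.

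**Figure D2:**
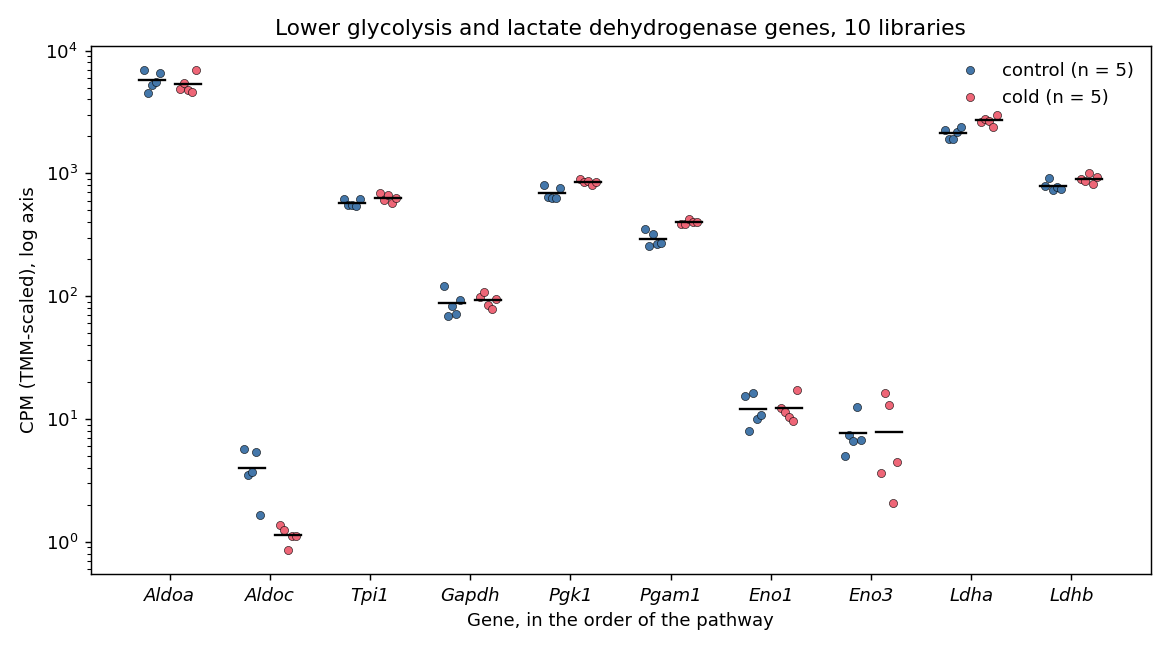
CPM of each member (log axis) in the 5 control and 5 cold libraries, in replicate order from left to right within each group, with the group mean as a bar. The cold points of Pgk1, Pgam1 and Ldha all lie above their control points, those of Aldoc all below, and the other members overlap.

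Aldolase A (Aldoa, chromosome 7, 133938748 to 133943961 in mm9, minus strand) is the main aldolase of the tissue by these counts. In controls 1 to 5 the level was 6954, 4534, 5216, 5516 and 6620 CPM, and cold replicates 1 to 5 held 4823, 5442, 4742, 4558 and 6922 CPM. The groups overlapped, and cold replicate 5 stood with the 2 highest controls. The log2 fold change was -0.12 (95% interval -0.43 to 0.18, adjusted p = 0.575 in the quasi-likelihood test). Control replicate 2 was the lowest control and cold replicate 5 the highest cold library, and with both left out the value was -0.32 (adjusted p = 0.0365). Leaving out these 2 extremes itself lowers the value and narrows the spread, so that fit cannot test for a fall. With 1 library left out the adjusted p was 0.184 to 0.826. Aldoart1 and Aldoart2, retrogene copies of Aldoa, held 1.97% to 2.12% and 0.107% to 0.177% of the Aldoa count in each library, and summing the 3 genes gave -0.12 (adjusted p = 0.572).

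Aldolase C (Aldoc, chromosome 11, 78137700 to 78140262, plus strand), the isozyme known from brain, was read at the lowest level of the members. Control replicates 1 to 5 held 25, 18, 16, 32 and 8 reads, and cold replicates 1 to 5 held 8, 8, 6, 7 and 6 reads. In CPM the controls lay at 1.65 to 5.66 and the cold libraries at 0.855 to 1.37, so the groups did not overlap, with control replicate 5 nearest to the cold group. Without the filter on low counts its log2 fold change was -1.80 (SE 0.35, adjusted p = 0.00292 in the same test), and with a CPM above 1 in at least 5 libraries as the filter it was -1.80 (adjusted p = 0.00281). Without control replicate 4 and cold replicates 2 and 3 it passed the filter, at -1.57 (adjusted p = 0.0836). In the authors' deposited table Aldoc has a log2 fold change of -1.798 and an adjusted p of 2.95e-05. The share of Aldoc in the aldolase A and C reads per kb was 0.0604% ± 0.0234 in control and 0.0189% ± 0.0042 in cold libraries. An exact two-sided permutation test over the 10 libraries gave p = 0.0159 (0.0476 adjusted over the 3 isozyme pairs tested, smallest possible 0.00794). That call was lost without cold replicate 2, 3, 4 or 5 (adjusted p = 0.0714 each, n = 9 libraries, same exact test).

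Triose phosphate isomerase (Tpi1, chromosome 6, 124760610 to 124764314, minus strand), which interconverts the triose phosphates, averaged 579 ± 37.9 CPM in controls and 635 ± 45.2 CPM after cold. The groups overlapped, at 542.5 to 621.7 and 574.9 to 689.9 CPM. Its log2 fold change was 0.13 (95% interval -0.03 to 0.30, adjusted p = 0.248). Gapdh (chromosome 6, 125111870 to 125116485, minus strand), which makes NADH, averaged 88.0 ± 21.2 CPM in controls and 93.2 ± 12.1 CPM after cold, from 355 to 703 reads a library. Control replicate 1 held 122.2 CPM and the other 4 controls 69.6 to 92.9 CPM, while the cold libraries lay between 78.6 and 109.2 CPM, so the groups overlapped. Its log2 fold change was 0.08, and the 95% interval of -0.23 to 0.40 does not leave out changes of the size seen in Pgk1 or Ldha. With 1 library left out the log2 value ran from 0.01 without control replicate 2 to 0.23 without control replicate 1, with 0.02 without control replicate 4 or cold replicate 2, and it was -0.02 without control replicate 4 and cold replicates 2 and 3. Gapdhs, known as the sperm isozyme, was lower in the cold, with 5.93 ± 1.75 CPM in controls and 3.24 ± 0.902 CPM after cold (log2 fold change -0.88, adjusted p = 0.0334). This call was lost without control replicate 2, 3 or 4 or cold replicate 1, 2, 3 or 4, with an adjusted p of up to 0.0847. It was also lost with the replicate block (0.0941).

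Phosphoglycerate kinase 1 (Pgk1, chromosome X, 103382439 to 103399038, plus strand), which makes the first ATP of the pathway's payoff phase, rose. The 5 controls, in replicate order, held 798.1, 647.9, 634.3, 634.7 and 764.7 CPM, and cold replicates 1 to 5 held 897.9, 852.9, 866.3, 800.1 and 848.6 CPM. The gap between the groups was narrow, from control replicate 1 to cold replicate 4, and the cold libraries were closer together than the controls. The log2 fold change was 0.29 (SE 0.08, 95% interval 0.11 to 0.48, adjusted p = 0.0281). The call was lost without control replicate 3 (adjusted p = 0.0682) or 4 (0.0713) or cold replicate 1 (0.0698), 2 (0.0603) or 3 (0.0641), where the log2 value stayed between 0.26 and 0.29. In the authors' deposited table Pgk1 has a log2 fold change of 0.291 and an adjusted p of 0.0518. Pgk2, the isozyme known from testis, had 0 reads in the 10 libraries.

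Phosphoglycerate mutase 1 (Pgam1, chromosome 19, 41986361 to 41993155, plus strand), which moves the phosphate of phosphoglycerate, had the largest rise of the tested members. Levels in control replicates 1 to 5 were 354.9, 256.2, 319.6, 264.3 and 269.8 CPM, and cold replicates 1 to 5 held 388.7, 389.5, 424.0, 403.7 and 404.0 CPM. The groups did not overlap, and the cold libraries varied less, with a coefficient of variation of 3.57% against 14.5%. Its log2 fold change was 0.46 (SE 0.09, 95% interval 0.25 to 0.66, adjusted p = 0.00522), and it passed the threshold in each of the 10 fits that left out 1 library. Pgam2, the muscle isozyme, averaged 1.87 ± 0.416 CPM in controls and 2.48 ± 1.3 CPM after cold (log2 fold change 0.41, adjusted p = 0.462). Bpgm, the related bisphosphoglycerate mutase, averaged 40.01 ± 7.95 and 34.1 ± 5.34 CPM (adjusted p = 0.290), and Pgam5, a mitochondrial protein phosphatase of the same family, was at 41.8 ± 3.41 and 40.8 ± 2.88 CPM (adjusted p = 0.807).

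Enolase turns phosphoglycerate into phosphoenolpyruvate. Eno1 (chromosome 4, 149611306 to 149622982, plus strand), the general isozyme, held 41 to 71 reads in control and 61 to 93 reads in cold libraries over its 127 counted bases. In CPM this was 12.1 ± 3.59 in control and 12.2 ± 3.06 in cold libraries, and the groups overlapped. The log2 fold change was 0.02 with a 95% interval of -0.45 to 0.49, which is wide enough to hold the changes of Pgam1, Ldha and Pgk1. It had the opposite sign without control replicate 2, 4 or 5 or cold replicate 5, where it lay between -0.14 and -0.02. Eno2, the neuronal isozyme, had 58 reads in all 10 libraries, and Eno4 had 4.

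Eno3 (chromosome 11, 70470678 to 70476015, plus strand), the enolase of muscle, was highest in the libraries with the most muscle transcripts. Control replicates 1 to 5 held 4.98, 7.45, 6.66, 12.6 and 6.81 CPM, and cold replicates 1 to 5 held 3.61, 16.2, 13.1, 2.06 and 4.49 CPM. The 3 highest values were those of control replicate 4 and cold replicates 2 and 3, the 3 libraries with the highest summed skeletal muscle markers. Over all 10 libraries the log2 fold change was 0.03 (95% interval -0.99 to 1.06, adjusted p = 0.969), and it changed sign without control replicate 1, 3 or 5 or cold replicate 2 or 3, where it lay between -0.40 and -0.02. Without the 3 libraries, a choice made after seeing the data, it was -0.94 (SE 0.31, adjusted p = 0.124, 4 control and 3 cold libraries) and did not pass the test. The remaining controls held 4.98 to 7.45 CPM and the remaining cold libraries 2.06 to 4.49 CPM. How many of all genes separate the groups without these 3 libraries was not counted. Pgam2 was likewise highest in these 3 libraries, at 2.53, 3.88 and 3.85 CPM against 1.11 to 1.96 CPM in the other 7. The share of Eno3 in the Eno1 and Eno3 reads per kb was 5.32% ± 2.75 in control and 5.06% ± 4.23 in cold libraries (exact two-sided permutation test, p = 0.873, also 0.873 adjusted over the 3 pairs).

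**Figure D3:**
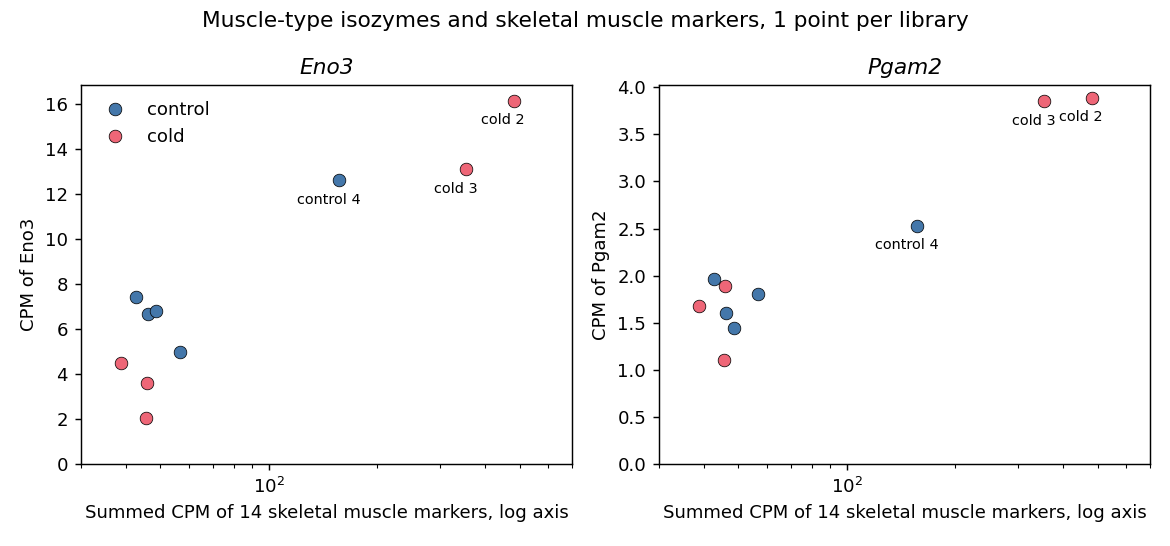
CPM of Eno3 (left) and Pgam2 (right), the muscle-type enolase and phosphoglycerate mutase, against the summed CPM of 14 skeletal muscle markers (log axis), 1 point per library. Control replicate 4 and cold replicates 2 and 3 lie apart from the other 7 libraries on both axes.

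Lactate dehydrogenase A (Ldha, chromosome 7, 54101174 to 54110997, plus strand), whose subunit is known to favour lactate formation, rose. Levels in control replicates 1 to 5 were 2274, 1907, 1897, 2162 and 2386 CPM, and cold replicates 1 to 5 held 2634, 2783, 2684, 2399 and 3005 CPM. The highest control, replicate 5, lay just below the lowest cold library, replicate 4. The log2 fold change was 0.35 (SE 0.09, 95% interval 0.15 to 0.54, adjusted p = 0.0182), and with 1 library left out it stayed between 0.30 and 0.39 with an adjusted p of up to 0.0476. The Ldha promoter window above is the one with 2 copies of CACGTG.

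Lactate dehydrogenase B (Ldhb, chromosome 6, 142438769 to 142456463, minus strand), the subunit known to favour pyruvate formation, did not pass the test. Control replicates 1 to 5 held 784.5, 915.4, 727.2, 773.8 and 753.1 CPM, and cold replicates 1 to 5 held 894.6, 860.8, 998.6, 824.2 and 936.3 CPM. Only control replicate 2 reached into the range of the cold libraries. The log2 fold change was 0.19 (SE 0.08, 95% interval 0.01 to 0.37), with an unadjusted p of 0.0401 and an adjusted p of 0.127 in the quasi-likelihood test. Without control replicate 2 it was 0.25 (adjusted p = 0.0348). The share of Ldhb in the Ldha and Ldhb reads per kb was 32.0% ± 3.50 in control and 29.6% ± 1.60 in cold libraries, with control replicate 2 at 37.7% and the other 9 libraries between 28.0% and 32.5%. The difference of -2.35 percentage points did not pass the exact two-sided permutation test (p = 0.206, adjusted p = 0.310). Without control replicate 2 it was -0.935 percentage points. Ldhd, the mitochondrial enzyme of D-lactate, was lower in the cold, with 160 ± 15.5 CPM in controls and 114 ± 27.6 CPM after cold (log2 fold change -0.49, adjusted p = 0.0242). This call was lost without control replicate 3 or cold replicate 1, 2, 3 or 4, with an adjusted p of 0.0507 to 0.0674. Ldhc, the testis subunit, had 0 reads.

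**Figure D4:**
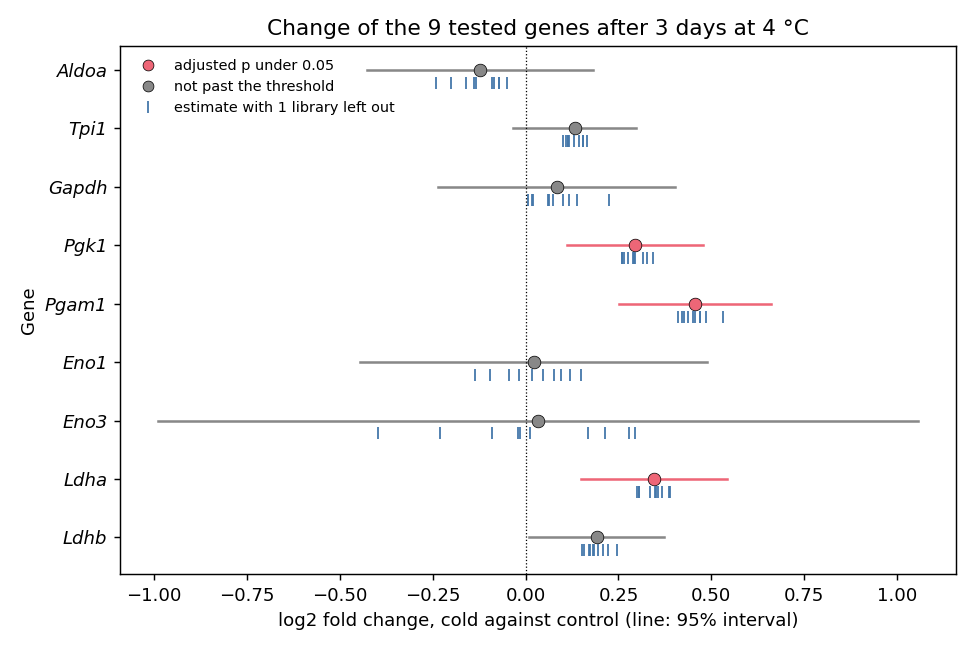
Log2 fold change of the 9 tested members in the cold with the 95% interval as a line, red where the adjusted p was under 0.05. Blue ticks are the estimates with each of the 10 libraries left out in turn. They stay to the right of 0 for Pgk1, Pgam1 and Ldha, and also for Tpi1, Gapdh and Ldhb, which did not pass the test. They stay to the left of 0 for Aldoa and spread on both sides of 0 for Eno1 and Eno3.

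Among themselves the members fell into different patterns over the 10 libraries. By the root-mean-square difference of centred log2 CPM, the nearest pairs were Pgk1 and Ldha at 0.0961, Tpi1 and Pgk1 at 0.100 and Tpi1 and Ldhb at 0.125. Eno3 was the farthest from the other 8 tested members, at 0.818 to 0.950. Of all genes tested outside the members, those nearest to Pgam1 were Ap1m1, an adaptor protein subunit of vesicle transport (0.0584), Ppp5c, a protein phosphatase (0.0709), and Lace1 (0.0712). Nearest to Ldha were Wdr12 (0.0777), a ribosome biogenesis factor, Cmpk1 (0.0847), a nucleotide kinase, and Derl1 (0.0860), a membrane protein of protein degradation. Nearest to Pgk1 were Tmem135 (0.0369), the transcription factor Tcf12 (0.0507) and Sod2 (0.0567), the mitochondrial superoxide dismutase. The median distance of all genes was 0.373, 0.334 and 0.319 from these 3 members.

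The genes around the lower pathway did not move as a block. Of 13 tested genes of upper glycolysis, 1 rose and 1 fell, with a median log2 fold change of 0.00. Over all genes tested 10.2% rose and 9.14% fell. Pfkm, a phosphofructokinase, fell by 0.46 on the log2 scale (adjusted p = 0.00281), and 9630033F20Rik, the gene of the fructose bisphosphatase-like regulator Tigar, rose by 0.58 (adjusted p = 0.0184). With single libraries left out 1 to 3 of these 13 rose, 3 of them without control replicate 1 and 2 without control replicate 2, 3, 4 or 5 or cold replicate 1 or 5, and 2 rose with DESeq2, limma-voom or another filter. Pkm, the pyruvate kinase of most tissues that takes the step after enolase, averaged 2862 ± 725 CPM in controls and 3064 ± 260 CPM after cold (log2 fold change 0.10, adjusted p = 0.681). Control replicate 2 held its lowest value, 1987 CPM, and without that library the log2 value was -0.01. Pklr, the liver isozyme, had too few reads to be tested.

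**Figure D5:**
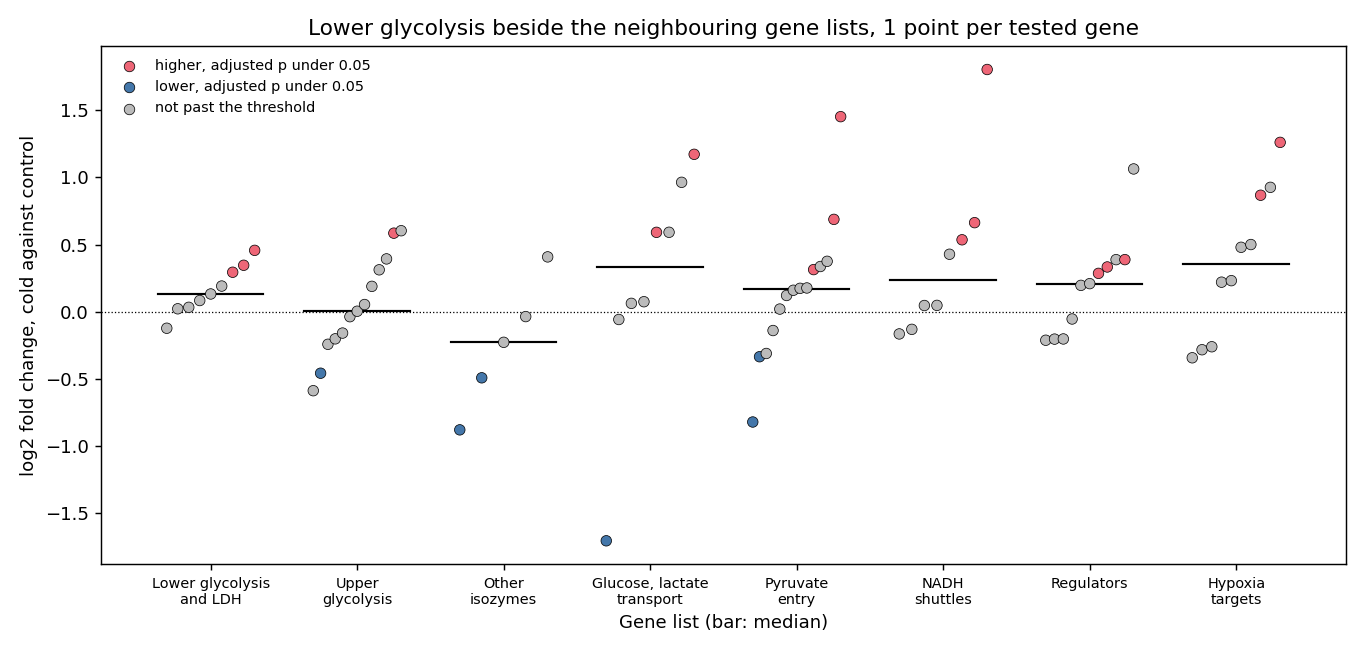
Log2 fold change in the cold of every tested gene of lower glycolysis and of 7 neighbouring lists, with the list median as a bar. Lower glycolysis spans -0.12 to 0.46, while Slc16a7 at -1.70 and Got1 at 1.80 mark the widest changes around it.

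Of 8 tested genes of glucose and lactate transport, 2 rose and 1 fell, where 10.2% of all genes tested rose and 9.14% fell. Bsg, the basigin chaperone of lactate transporters, rose by 1.17 (SE 0.08, adjusted p = 2.05e-06) from 598 ± 43.9 to 1347 ± 93.1 CPM. Slc16a7, the monocarboxylate transporter of high pyruvate affinity, fell by 1.70 (SE 0.21, adjusted p = 0.000131) from 15.2 ± 4.27 to 4.64 ± 0.523 CPM. Slc16a1, the monocarboxylate transporter that moves lactate and ketone bodies, had a log2 fold change of 0.59 (adjusted p = 0.03). This call was lost without control replicate 4 or 5 or cold replicate 1, 2, 3 or 4, with an adjusted p of up to 0.0768.

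Of 14 tested genes of pyruvate entry into mitochondria and its control, 3 rose and 2 fell. The shares over all genes tested were 10.2% and 9.14%. Pcx, pyruvate carboxylase, fell by 0.82 (SE 0.10, adjusted p = 0.000123) from 1258 ± 134 to 712 ± 80.3 CPM. Pdk3, which shuts off pyruvate dehydrogenase by phosphorylation, rose by 1.45 from 1.84 ± 0.775 to 5.02 ± 1.76 CPM (adjusted p = 0.00988). Pdk4, another such kinase at a far higher level, rose by 0.69 from 2094 ± 675 to 3373 ± 528 CPM (adjusted p = 0.0362). The call of Pdk4 was lost without control replicate 4 or 5 or cold replicate 1, 2, 3 or 4. The mitochondrial pyruvate carrier subunits Mpc1 and Mpc2 were at -0.33 (adjusted p = 0.0253) and 0.31 (adjusted p = 0.0260). The call of Mpc1 was lost without control replicate 5 or cold replicate 2, 3 or 4 (up to 0.0707) and that of Mpc2 without cold replicate 1, 2 or 3 (up to 0.0629). Without cold replicate 1, 2 or 3, 1 of the 14 genes rose, and without control replicate 5 or cold replicate 2, 3 or 4, 1 fell.

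Genes of the shuttles that reoxidise the NADH of glycolysis had 3 of 8 tested members higher and 0 lower. Over all genes tested 10.2% were higher and 9.14% lower. Gpd1, the cytosolic glycerol-3-phosphate dehydrogenase that draws on the triose phosphates made by aldolase, rose by 0.66 (SE 0.11, adjusted p = 0.00166) from 13840 ± 1190 to 21910 ± 3564 CPM. Got1, the cytosolic aspartate aminotransferase of the malate-aspartate shuttle, rose by 1.80 (SE 0.21, adjusted p = 0.000119) from 40.7 ± 17.8 to 142 ± 7.53 CPM. Got2, its mitochondrial partner, rose by 0.54 (SE 0.10, adjusted p = 0.00237) from 31.0 ± 2.76 to 45.0 ± 4.30 CPM. The 5 cold libraries lay above the 5 controls for all 3, as they did for 7.39% of all genes tested. Each of the 3 kept an adjusted p under 0.05 with single libraries left out and without control replicate 4 and cold replicates 2 and 3. The other 5 tested genes did not pass the test. Gpd2 was at 0.05, Mdh1 at -0.165, Mdh2 at 0.05, Slc25a12 at 0.43 and Slc25a11 at -0.13 (adjusted p = 0.183). For Slc25a11 the 5 cold libraries lay below the 5 controls (254 ± 10.4 and 232 ± 10.1 CPM), as they did for 6.57% of all genes tested.

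Of 11 tested regulators of glycolytic genes, 3 were higher and 0 lower, where 10.2% of all genes tested were higher and 9.14% lower. Hif1a and Epas1, the hypoxia-inducible factors, were at 0.39 (adjusted p = 0.0196) and 0.33 (adjusted p = 0.0244), and Esrra, an estrogen-related receptor, was at 0.29 (adjusted p = 0.0386). These calls were lost in some fits without 1 library: that of Hif1a without control replicate 4 or cold replicate 1 (up to 0.0537), and that of Epas1 without control replicate 4 or cold replicate 1, 3 or 4 (up to 0.0634). The call of Esrra was lost without control replicate 1, 2 or 3 or cold replicate 3, 4 or 5 (up to 0.0892), with library sizes without the 20 most abundant genes (0.0502), with no filter (0.0555) and without both control replicate 2 and cold replicate 5 (0.0955). Without control replicate 4 or cold replicate 1, 3 or 4, 1 regulator was higher, and without control replicate 1, 1 was lower. Of 10 tested hypoxia targets outside glycolysis, 2 rose and 0 fell: P4ha1, a collagen prolyl hydroxylase, by 1.26 (adjusted p = 4.66e-05) and Egln1, the prolyl hydroxylase that marks hypoxia-inducible factors for breakdown, by 0.87 (adjusted p = 0.000290). The other 8 did not pass the test, among them Vegfa at 0.23. Estimates were above 0 for 7 of the 10 and below 0 for Bnip3 (-0.34), Kdm3a (-0.28) and Ddit4 (-0.26).

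The 3 libraries with muscle transcripts were also left out together for every count above, a choice made after seeing the data that leaves 4 control and 3 cold libraries. Then 294 genes rose and 188 fell over the whole table, and 0 of the 10 members passed, Aldoc being tested there as well. The log2 fold changes were 0.41 for Pgam1 (adjusted p = 0.109), 0.34 for Ldha (adjusted p = 0.181) and 0.26 for Pgk1 (adjusted p = 0.252), beside 0.46, 0.35 and 0.29 over all 10 libraries. Over all 10 libraries 14 of 70 tested neighbouring genes were higher and 6 lower, beside 10.2% and 9.14% of all genes tested. Without the 3 libraries 6 were higher and 3 lower, beside 2.63% and 1.68% of all genes tested. The count of genes that rose was then 0 for upper glycolysis, 1 for transport, 0 for pyruvate entry, 3 for the shuttles, 0 for the regulators and 2 for the hypoxia targets. Of the named neighbours, the calls of Gapdhs, Ldhd, 9630033F20Rik, Slc16a1, Pdk3, Mpc1, Mpc2, Hif1a, Epas1 and Esrra were lost there, with adjusted p from 0.125 for Esrra to 0.255 for Slc16a1. That of Pdk4 was lost as well.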

How the data were processed

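The data are 10 libraries of poly-A RNA, 1 per mouse. The values deposited are unnormalised read counts for RefSeq gene models, per the file headers and their whole numbers. STAR, edgeR and the build mm9 are named by the submitters' processing notes. Versions, read counter, strand setting and treatment of multiply mapping reads are not stated there. The authors' deposited comparison gives log2 fold changes, log2 CPM and p-values, per the file headers. Start coordinates were raised by 1. Control columns carry no group word and were matched by replicate number.

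Counts were tested with edgeR 4.0.16 (quasi-likelihood F test, TMM scaling, filterByExpr, R 4.3.3), cold against control, with Benjamini-Hochberg adjustment over 11229 genes and a threshold of 0.05. The SE is the log2 fold change divided by the square root of F, and 95% intervals use the test's degrees of freedom. RPKM divides CPM by the counted bases. Log2 CPM used a prior count of 2. The test was checked on simulated counts with 1 dispersion for all genes and planted changes larger than those of the 3 members called. That check does not cover changes of their size. Limma-voom (limma 3.58.1) and DESeq2 1.42.0 were alternatives, with other scalings, filters, a replicate block and left-out libraries. No 2 libraries of a group agreed within sampling noise (chi-square per degree of freedom 3.31 to 38.7). Members, lists and tests were chosen with earlier results of these data known. Named genes are all members, their isozymes, at most 4 called genes of each list, and the 3 genes nearest in pattern to each of the 3 members with the smallest p. Pdk4 is named besides. The labels name separate mice.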

Additional observations from a re-analysis of the deposited data

Results flagged for a closer look

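In 4 of 72 groups of 5 libraries checked, for members, isozyme shares and named neighbours without Pdk4, 1 library lay far from the other 4, and chance gives about 1 in 20. None of the 4 was a member. Cold replicate 5 held 162.3 CPM of Ldhd against 95.9 to 107.7 CPM in the other cold libraries, and 28060 CPM of Gpd1 against 18800 to 21130 CPM. Control replicate 2 held 679.6 CPM of Mpc2 against 868.2 to 921.7 CPM in the other controls. Cold replicate 2 held 43.3 CPM of Bpgm against 29.5 to 33.4 CPM in the other cold libraries.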

How the results depend on the processing

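Pgam1 and Ldha kept their direction and an adjusted p under 0.05 under every alternative run except the one without control replicate 4 and cold replicates 2 and 3, given with the results, where their direction was kept. Pgk1 also kept its direction in all and lost the call in that fit and in the 5 single-library fits named with it. With single libraries left out 2 to 4 members were higher and 0 to 1 lower, 823 to 1310 genes of the table rose and 732 to 1157 fell, and of the neighbouring genes 9 (no cold replicate 3) to 16 were higher and 3 (no cold replicate 2, 3 or 4) to 7 lower. The member that fell was Aldoc with no filter (1 member), with a CPM above 1 in at least 5 libraries (1 member), and without control replicate 5 or any 1 cold library, fits in which it passed the filter. The member called lower was Aldoa (1 member) when control replicate 2 and cold replicate 5, its lowest control and highest cold library, were both left out. That fit cannot test for a fall of Aldoa. Without control replicate 4 and cold replicates 2 and 3, 294 genes rose, 188 fell, 0 members rose, and 6 neighbouring genes rose and 3 fell. The cause of these shifts was not tested.

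The log2 fold change of Eno1 was -7e-04 with library sizes without the 20 most abundant genes, -0.0969 without control replicate 2, -0.0448 without control replicate 4, -0.0183 without control replicate 5, -0.136 without cold replicate 5 (up to 0.1485 with other single libraries left out) and -0.250 without control replicate 2 and cold replicate 5. That of Eno3 was -0.305 with limma-voom, -0.172 with the replicate block, -0.0901, -0.0199 and -0.0153 without control replicate 1, 3 or 5, -0.396 and -0.230 without cold replicate 2 or 3 (up to 0.2944 with others left out), and -0.945 without the 3 libraries with muscle transcripts, where Gapdh was at -0.0179. Ldhb was at 0.231 (adjusted p = 0.0436) without control replicate 2 and cold replicate 5. Pgam5 was at 0.004 without cold replicate 4 (down to -0.0798 with others left out), and Pkm at -0.0108 without control replicate 2 (up to 0.2318) and -0.0578 without cold replicate 5 as well. The cause was not tested.

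The Aldoc share differed by -0.0513 to -0.0357 percentage points with single libraries left out, by -0.0388 (adjusted p = 0.171) without control replicate 2 and cold replicate 5, by -0.0349 (adjusted p = 0.129) without the 3 libraries, and by -0.0416 in the exact sign-flip test with the replicate block (adjusted p = 0.0938), whose 5 pairs cannot pass the threshold. The Eno3 share differed by -1.54 to 0.717 percentage points with single libraries left out by 0.897 without control replicate 2 and cold replicate 5, by -2.36 (adjusted p = 0.129) without the 3 libraries and by -4.23 on raw read counts. The Ldhb share differed by -3.24 to -0.935 with single libraries left out and by -0.566 without control replicate 2 and cold replicate 5. In the same sign-flip test with the replicate block the adjusted p was 0.0938 for the Ldhb share (-2.35) and 0.938 for the Eno3 share (-0.256). With the replicate block in edgeR 981 genes rose and 808 fell, and 3 members rose (Pgk1 adjusted p = 0.0416). The replicate numbers did not pair the libraries (correlations of deviations -0.255 to 0.192), and own numbers matched best in 2 of 5.

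Depth limits Aldoc, Eno3 and Eno1 most, at 134, 451 and 663 reads over all libraries, and shared sequence limits Gapdh, Eno1, Pgk1 and Pgam1. Intervals and SDs are over mice.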
